A study of Mus musculus with 6 samples.

Results

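The Bcl2 family decides whether a cell keeps or opens the outer membrane of its mitochondria, and 10 of its genes were followed in mouse bone marrow-derived macrophages (BMDMs) with and without zoledronic acid (ZA). The genes were taken by symbol from the deposited expression table, in which they are 10 of 35434 rows. They comprise the anti-apoptotic genes Bcl2, Bcl2l1 and Mcl1, the effectors Bax and Bak1, and the BH3-only genes Bid, Bad, Bcl2l11, Bbc3 and Pmaip1. Marrow cells came from the femurs of C57BL/6 mice and were grown with macrophage colony-stimulating factor, after removal of erythrocytes and cells that did not adhere. There were 3 libraries of untreated BMDMs (Ctrl) and 3 libraries of BMDMs taken 12 h after ZA was added. ZA is a bisphosphonate that inhibits farnesyl pyrophosphate synthase in the mevalonate pathway, and the comparison asks which transcripts differ after exposure to it. No engineered allele is named for any of the libraries. The ZA concentration for these libraries, and whether libraries of a group come from separate animals or cultures, are not given in the sources used here, so that p-values measure the spread between these libraries.

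In living cells, anti-apoptotic members such as BCL-2, BCL-XL (from Bcl2l1) and MCL-1 hold the effectors BAX and BAK in check. When freed or activated, the effectors form pores in the outer mitochondrial membrane, cytochrome c leaves the mitochondria, and caspases are activated. BH3-only proteins start this process, each in answer to its own signals, by binding anti-apoptotic members or by activating the effectors directly. Macrophage colony-stimulating factor, in which BMDMs are grown, is a survival signal for macrophages. Much of the control of this family acts on proteins, through cleavage, phosphorylation and degradation, which transcript levels do not show.

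The values are FPKM, fragments scaled by gene length and by library size, as the authors deposited them. Differences between groups are on the log2(FPKM + 1) scale from limma, which understates the change of genes with a low FPKM. Of the 10 genes, 9 could be tested across all genes (Bcl2 was too low), and 0 of these passed an adjusted p-value of 0.05 (limma, Benjamini-Hochberg over the 9800 genes tested), which 0.367% of the genes tested did. An unadjusted p-value under 0.05 was found for 2 of the 9 family genes tested, Bbc3 higher and Bcl2l1 lower, against 12.3% of all genes tested. Bbc3 and Bcl2l1 were also the 2 of 10 genes whose Ctrl and ZA libraries did not overlap, which held for 18.1% of the genes tested. Read against these shares, counts of 2 do not set the family apart from the rest of the table. The median difference of the 9 family genes tested was 0.03, and their median absolute difference was 0.04, as over all genes tested (0.01 and 0.04). With voom on the recovered fragments, 0 family genes had an adjusted p-value under 0.05 as well.

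Because Bbc3 and Bcl2l1 were the members that separated the groups, the 250 bases before a transcription start of each are shown, from RefSeq on GRCm38.p6, matched by symbol. The start was the most upstream of those listed, preferring starts found in GENCODE M21, which held for 3 of 3 starts of Bcl2l1 and 0 of 3 starts of Bbc3. In that annotation the Bcl2l1 window lies in no gene, just before the outermost transcript start of Bcl2l1. The Bbc3 window holds 0 exon bases and lies in an intron of Bbc3, since a transcript of the gene begins further upstream. Capitals mark the GC box, GGGCGG or its reverse complement CCGCCC, the motif bound by Sp1 and its relatives. The Bbc3 window is chr7:16309333-16309582 on the + strand and the Bcl2l1 window is chr2:152831729-152831978 on the - strand.
Bbc3: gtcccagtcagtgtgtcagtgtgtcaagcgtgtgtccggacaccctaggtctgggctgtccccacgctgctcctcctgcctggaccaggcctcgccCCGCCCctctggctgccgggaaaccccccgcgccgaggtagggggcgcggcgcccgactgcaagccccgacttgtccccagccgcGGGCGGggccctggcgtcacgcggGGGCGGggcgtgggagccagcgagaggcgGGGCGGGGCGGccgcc
Bcl2l1: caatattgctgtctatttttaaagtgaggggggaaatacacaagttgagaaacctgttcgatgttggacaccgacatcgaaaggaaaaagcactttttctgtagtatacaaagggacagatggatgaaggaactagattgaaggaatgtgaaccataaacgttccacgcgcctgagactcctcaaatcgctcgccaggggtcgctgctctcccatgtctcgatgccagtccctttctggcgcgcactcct
The Bbc3 window held 5 GC boxes, the last 2 of which share a base, 27 CpG dinucleotides and 76.4% G and C. The Bcl2l1 window held 0 GC boxes, 12 CpG dinucleotides and 47.6% G and C. RefSeq windows were found for 9 of the 10 genes, Pmaip1 being the exception. Of their 15 windows, 10 held a GC box on either strand, and of all 32851 windows of the same length 32.7% did. Counted by gene, 7 of the 9 had a GC box in any window, and windows of a gene can overlap. The median G and C content was 64.4% over the family's windows and 52.4% over all windows. A match describes the letters of the window and does not show that a factor was bound there.

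**Figure D1:**
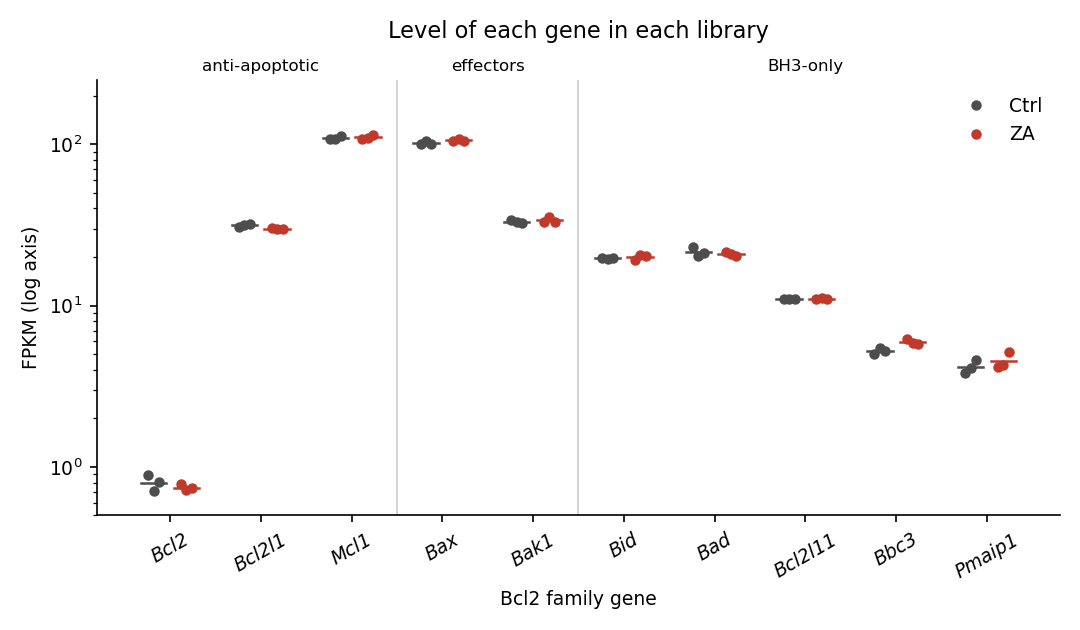
FPKM of the 10 Bcl2 family genes (log axis) in 3 Ctrl and 3 ZA libraries, with points for libraries and lines for group means (n = 3). Mcl1 and Bax lie near 100 FPKM, Bcl2 lies under 1 FPKM, and the libraries of both groups lie close together for each gene.

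In Ctrl BMDMs the genes spanned from 109.1 ± 2.31 FPKM for Mcl1 to 0.80 ± 0.0923 FPKM for Bcl2 (SD, n = 3). In level the order was Mcl1, Bax, Bak1, Bcl2l1, Bad, Bid, Bcl2l11, Bbc3, Pmaip1 and Bcl2, and it was the same in ZA-treated BMDMs. Each gene's 3 libraries lay apart from those of the next gene in both groups, except that the libraries of Bad and Bid overlapped in ZA. FPKM divides by the gene length used in the authors' counting, and that length could be recovered from the values. For Mcl1 it was 8725 bases against 3418 bases for the longest transcript in GENCODE M21, for Bcl2l11 11982 against 5036 bases, for Bbc3 3008 against 1814 bases, and for Bcl2l1 3242 against 2568 bases. If all counted fragments are kept and divided by the longest transcript's length, mean FPKM over the 6 libraries becomes 280.2 for Mcl1 and 90.6 for Bax. It becomes 38.7 for Bcl2l1, 28.1 for Bak1, 26.2 for Bcl2l11 and 9.25 for Bbc3. For Mcl1, Bcl2l11 and Bbc3 the recovered length also exceeds all exons in GENCODE M21 (3418, 8029 and 2124 bases). Fragments from bases outside the transcript may thus be counted, which would make the values of these genes too high. With all counted fragments kept, the order of Bcl2l1 against Bak1, and of Bcl2l11 against Bad and Bid, turned with the length used. The ratio of a gene's FPKM between ZA and Ctrl does not depend on it. Differences of log2(FPKM + 1), and the mean of 1 FPKM required for testing, do in part.

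Mcl1, whose product is a short-lived guard of BAK and a binder of BIM, had FPKM values of 108.0, 107.4 and 111.7 in Ctrl and 108.2, 109.9 and 113.3 after ZA. The groups overlapped, and the libraries held 38926 to 41664 fragments of Mcl1, the most of any member. The difference was 0.02 on the log2(FPKM + 1) scale (95% interval -0.04 to 0.08, limma, adjusted p = 0.822). A rise of more than 5.66% or a fall of more than 2.93% in FPKM + 1 lies outside this interval.

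Bcl2l1, which encodes BCL-XL and by alternative splicing the shorter pro-apoptotic BCL-XS, had FPKM values of 30.9, 31.7 and 31.8 in Ctrl and 30.2, 29.8 and 29.8 in ZA. All ZA libraries were below all Ctrl libraries, with a gap between the groups that is small beside the level. Fragment counting alone gives Bcl2l1 a coefficient of variation of 1.55% per library. Between libraries it was 1.66% in Ctrl and 0.711% in ZA, the latter below counting error. Mean FPKM in Ctrl was 31.5 ± 0.524 and mean FPKM in ZA 29.9 ± 0.213 (SD, n = 3), a change of -4.89%. The difference was -0.07 on the log2(FPKM + 1) scale (standard error 0.03, 95% interval -0.13 to -0.01), with an unadjusted p of 0.0244 and an adjusted p of 0.328 from limma. Its unadjusted p-value was above 0.05 without Ctrl replicate 2 (adjusted p = 0.558, limma), without Ctrl replicate 3 (adjusted p = 0.465), without ZA replicate 2 (adjusted p = 0.538) and without ZA replicate 3 (adjusted p = 0.522). The table has 1 value per gene, so BCL-XL and BCL-XS transcripts are summed.

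Bcl2, the founding member, was the lowest of the 10 genes and did not reach the mean of 1 FPKM that was required for the comparison across genes. It had FPKM values of 0.892, 0.707 and 0.801 in Ctrl and 0.779, 0.717 and 0.736 in ZA, from 216 to 273 fragments per library. The groups overlapped, and the highest and the lowest value were both in Ctrl. Its difference in mean log2(FPKM + 1) was -0.04 (p = 0.5 in a two-sided exact permutation test, whose smallest possible p with 3 libraries a group is 0.1). Bcl2 was thus measurable in every library, well above the 3 fragments, or 0.00980 FPKM, taken as the floor of its detection.

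Bax and Bak1 encode the effectors that form the pore, BAX moving from the cytosol to mitochondria and BAK residing there. Bax had FPKM values of 100.2, 105.1 and 100.6 in Ctrl and 105.1, 107.9 and 105.0 after ZA. The lowest ZA library lay just under the highest Ctrl library, so that the groups overlapped. The difference of Bax was 0.06 on the log2(FPKM + 1) scale (95% interval -0.01 to 0.12, unadjusted p = 0.0677, adjusted p = 0.449, limma). Bak1 had FPKM values of 33.7, 33.0 and 32.6 in Ctrl and 33.1, 35.3 and 33.1 in ZA. ZA replicate 2 stood above the other libraries of Bak1, and the other ZA libraries lay among those of Ctrl. Its difference was 0.03 (95% interval -0.04 to 0.10, adjusted p = 0.749, limma).

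Bbc3, which encodes PUMA, a BH3-only protein known as a p53 target that can bind every anti-apoptotic member, had FPKM values of 5.03, 5.47 and 5.21 in Ctrl and 6.16, 5.84 and 5.76 in ZA. All ZA libraries were above all Ctrl libraries, in 630 to 764 fragments per library. Mean FPKM in Ctrl was 5.23 ± 0.223 and mean FPKM in ZA 5.92 ± 0.209 (SD, n = 3), a change of 13.2%, the largest of the 10 genes and the only one of at least 10%. Among all genes tested, 12.2% changed by at least 10%. On the log2(FPKM + 1) scale the difference was 0.15 (standard error 0.04, 95% interval 0.05 to 0.25), with an unadjusted p of 0.00753 and an adjusted p of 0.219 from limma. By the absolute moderated statistic Bbc3 was at rank 337 of 9800 genes. Fragment counting alone gives Bbc3 a coefficient of variation of 3.78% per library, and the coefficients of variation between libraries were 4.26% in Ctrl and 3.53% in ZA.

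Pmaip1, which encodes NOXA, a BH3-only protein that binds MCL-1 and promotes its loss, had FPKM values of 3.81, 4.10 and 4.61 in Ctrl and 4.13, 4.26 and 5.14 after ZA. The groups overlapped, and replicate 3 was the highest library of Pmaip1 in each group. With 421 to 575 fragments per library and coefficients of variation of 9.74% in Ctrl and 12.2% in ZA, it had the widest interval of the tested members. Its difference was 0.09 (95% interval -0.10 to 0.28, adjusted p = 0.694, limma). A change of the size found for Bbc3 lies within that interval. Single libraries moved the value, to 0.01 without ZA replicate 3, 0.04 without Ctrl replicate 1, 0.15 without Ctrl replicate 3 and 0.14 without ZA replicate 1.

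Bcl2l11 encodes BIM, which binds all anti-apoptotic members and can activate the effectors, and which rises in many blood cells when growth factors are withdrawn. Its FPKM values were 11.04, 10.97 and 11.03 in Ctrl and 10.92, 11.14 and 10.98 after ZA. The ZA libraries enclosed the Ctrl libraries. Coefficients of variation of 0.384% in Ctrl and 1.01% in ZA were the smallest of the family in each group except for Bcl2l1 in ZA (0.711%). Fragment counting alone gives Bcl2l11 1.35% per library, more than either. The difference was -7.89e-05 on the log2(FPKM + 1) scale (95% interval -0.07 to 0.07, adjusted p = 0.9999, limma). In percent of FPKM + 1, the interval reached from -4.52% to 4.72%.

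Bid, cleaved by caspase-8 into an active fragment that carries death receptor signals to mitochondria, had FPKM values of 19.8, 19.3 and 19.6 in Ctrl and 19.3, 20.6 and 20.2 in ZA. Its difference was 0.03 (95% interval -0.04 to 0.11, adjusted p = 0.746, limma). Bad, held inactive by phosphorylation through AKT and binding to 14-3-3 proteins, had FPKM values of 23.0, 20.4 and 21.04 in Ctrl and 21.4, 20.9 and 20.3 in ZA. Ctrl replicate 1 was the highest library of Bad, and the groups overlapped for both genes. The difference of Bad was -0.04 (95% interval -0.14 to 0.07, adjusted p = 0.767, limma), and it turned to 0.01 without Ctrl replicate 1.

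**Figure D2:**
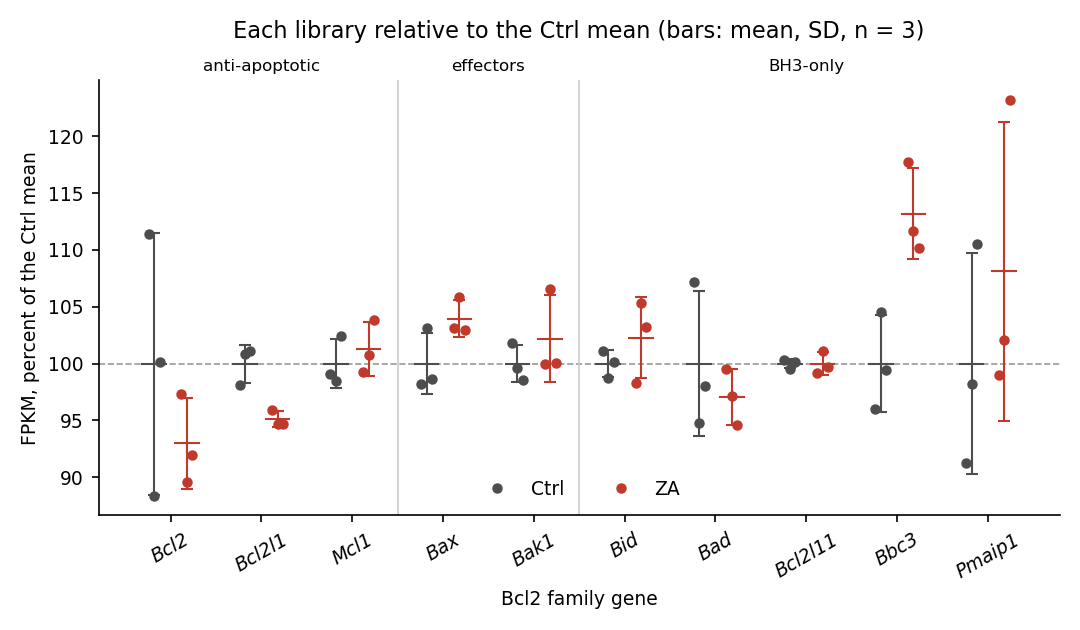
FPKM of each library in percent of the gene's Ctrl mean, for the 10 genes, with points for libraries and bars for the mean and SD (n = 3). The ZA libraries of Bbc3 lie above and those of Bcl2l1 below all Ctrl libraries, and the groups of the other 8 genes overlap.

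**Figure D3:**
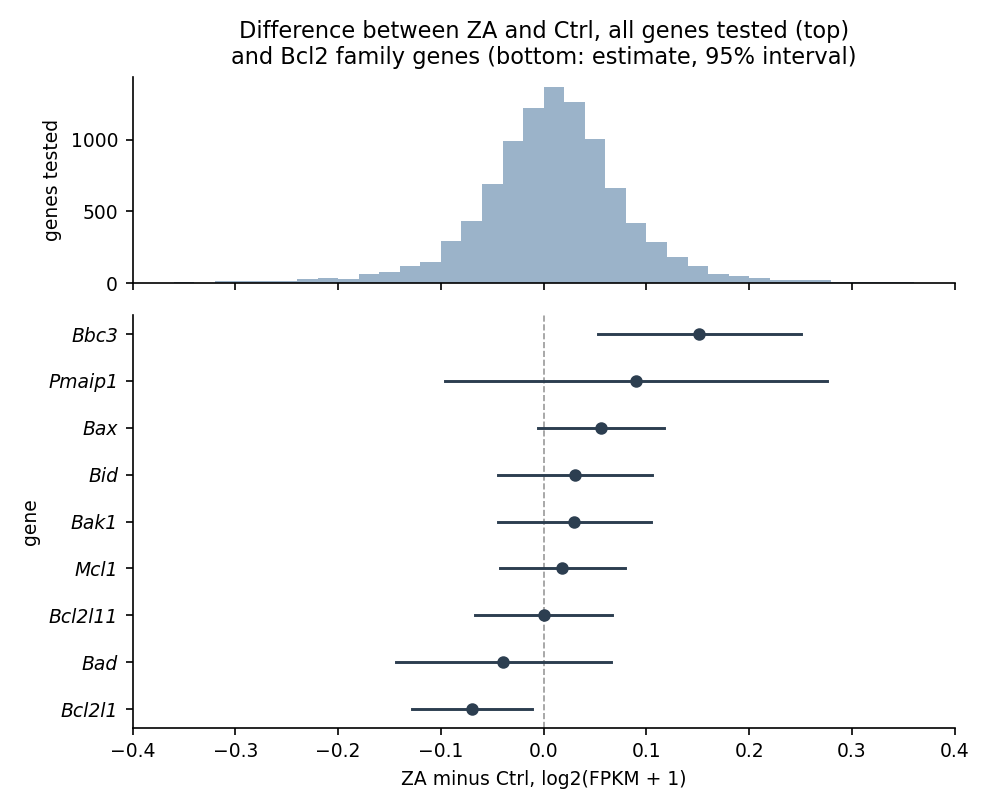
Top, number of genes by their difference between ZA and Ctrl on the log2(FPKM + 1) scale, over the 9800 genes tested (bins of 0.02, with 36 genes outside the axis). Bottom, the difference of the 9 family genes tested with its 95% interval, from -0.07 for Bcl2l1 to 0.15 for Bbc3, all within the range of the genes above.

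By direction of the mean alone, 6 of the 10 genes were higher and 4 were lower in ZA-treated BMDMs, where 56.9% of the genes tested were higher. Both effectors and 3 of the 5 BH3-only genes (Bid, Bbc3 and Pmaip1) had the higher mean in ZA, as did Mcl1 among the anti-apoptotic genes. Summed over the 3 anti-apoptotic genes, the Ctrl libraries had 139.8, 139.8 and 144.3 FPKM and the ZA libraries 139.2, 140.4 and 143.8 FPKM, and Mcl1 makes up most of these sums. For Bax and Bak1 the Ctrl sums were 133.8, 138.1 and 133.3 and the ZA sums 138.2, 143.2 and 138.1. For the 5 BH3-only genes the Ctrl sums were 62.7, 60.2 and 61.5 and the ZA sums 61.8, 62.7 and 62.4. In all 3 classes the groups overlapped. Over all 10 genes the Ctrl sums were 336.3, 338.2 and 339.1 FPKM and the ZA sums 339.2, 346.3 and 344.3 FPKM, so that the groups were apart, though by little between the highest Ctrl and the lowest ZA library. The difference of the mean sums was 5.43 FPKM, and 2.21 when each library was divided by its median. These sums are given without a test, since their members were chosen.

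Ratios between members do not depend on the scaling of a library. Bax to Bcl2, often quoted as a balance of pro- and anti-apoptotic transcripts, had values of 112.3, 148.7 and 125.6 in Ctrl libraries and 135.0, 150.6 and 142.7 in ZA libraries, with overlap. Fragment counting alone gives Bcl2 a coefficient of variation of 6.50% per library. For Mcl1 to Bcl2l11 they were 9.78, 9.80 and 10.1 among Ctrl and 9.91, 9.87 and 10.3 among ZA libraries, again with overlap. The ratios to Bcl2l1 were added after its values had been seen. For Bax to Bcl2l1 the Ctrl libraries had 3.25, 3.31 and 3.16 and the ZA libraries 3.49, 3.62 and 3.52. For Bbc3 to Bcl2l1 the Ctrl libraries had 0.163, 0.172 and 0.164 and the ZA libraries 0.204, 0.196 and 0.193. The groups of both ratios were apart, which their choice favours, and they are given as a description.

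**Figure D4:**
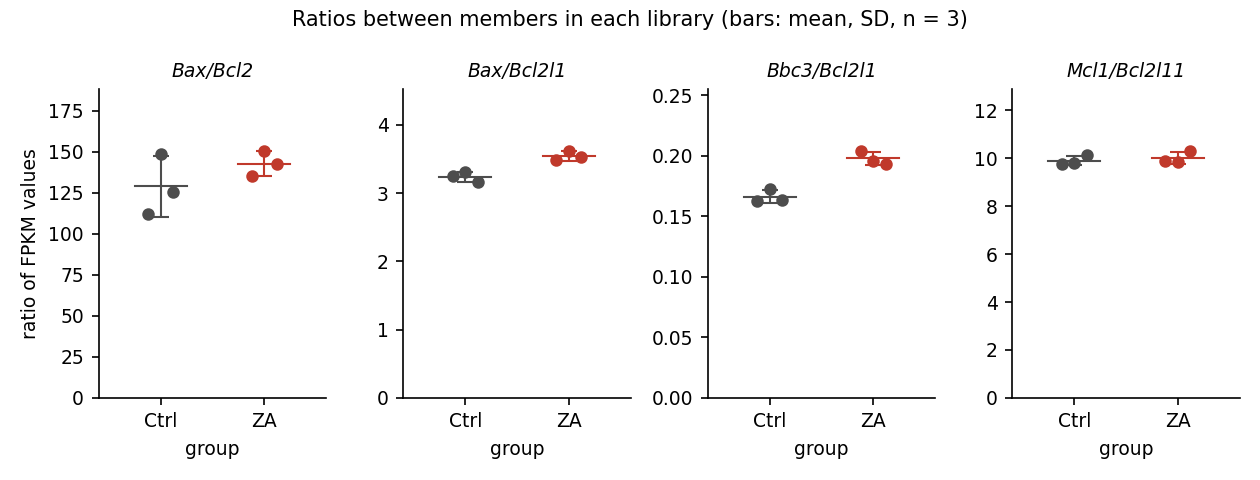
Ratio of the FPKM values of 2 members in each of 3 Ctrl and 3 ZA libraries, with bars for the mean and SD (n = 3) and axes that start at 0. Bax to Bcl2 and Mcl1 to Bcl2l11 overlap between the groups, and Bax to Bcl2l1 and Bbc3 to Bcl2l1 do not.

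Beyond the 10 genes, 70 genes of the same pathway were followed, of which 58 reached the level for testing. Of these, 0 had an adjusted p-value under 0.05 (limma), and an unadjusted p-value under 0.05 was found for 2 that were higher (Birc3 and Nfkb1) and 5 that were lower (Bcl2a1b, Fadd, Ripk3, Myc and Hif1a), where 7.50% and 4.85% of the genes tested were called in these directions. The median difference of the 58 genes was -0.01, beside 0.01 for all genes tested. Below, levels are mean FPKM ± SD (n = 3) in Ctrl and then in ZA.

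Of 17 other relatives of Bcl2, 9 were tested, with 4 higher and 5 lower and 1 of these lower at the unadjusted threshold. Bcl2a1b, a copy of the anti-apoptotic A1 gene, was the highest at 121 ± 2.06 and 114 ± 3.96 FPKM (difference -0.08, adjusted p = 0.317, limma). This is above the level of Mcl1 as deposited, but A1 has several near-identical copies between which reads can be split, so its value is uncertain. Bcl2a1d was at 8.99 ± 0.341 and 8.11 ± 0.962 FPKM, and Bcl2a1c, Bcl2l10 and Hrk were listed at 0 in every library. Bmf, a BH3-only gene, was at 6.50 ± 0.209 and 7.02 ± 0.409 FPKM (adjusted p = 0.452, limma). Bnip3, which acts in mitophagy, was at 12.03 ± 1.09 and 13.1 ± 0.466 FPKM (adjusted p = 0.477, limma).

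In the list of the mitochondrial outer membrane and the apoptosome, 10 of 10 genes were tested, with 2 higher and 8 lower and 0 past the unadjusted threshold. Vdac2, a channel of the outer membrane that binds BAK, was the highest at 169.8 ± 2.04 and 164.5 ± 2.54 FPKM (adjusted p = 0.453, limma). Endog, a nuclease of the intermembrane space, was at 4.22 ± 0.109 and 3.94 ± 0.155 FPKM, and Vdac1 was at 28.6 ± 0.459 and 27.6 ± 0.745 FPKM. All 5 apoptotic caspase genes were tested, with 4 higher and 1 lower. The lower was Casp8, the initiator downstream of death receptors, at 23.3 ± 0.654 and 22.1 ± 0.576 FPKM, with groups that did not overlap (adjusted p = 0.405, limma). Casp2 was at 7.28 ± 0.240 and 7.70 ± 0.536 FPKM.

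Among the inhibitors of apoptosis proteins, 5 of 5 genes were tested, with 3 higher and 2 lower. Birc3, which encodes the ubiquitin ligase cIAP2 and is an NF-κB target, came closest to the threshold of the 58 genes. Its level was 13.1 ± 0.155 and 14.7 ± 0.316 FPKM, with groups that did not overlap (difference 0.15, standard error 0.03, adjusted p = 0.0938, limma). Birc2 was at 3.56 ± 0.0745 and 3.72 ± 0.125 FPKM, and Birc5, a mitotic member, was at 1.18 ± 0.279 and 1.06 ± 0.0576 FPKM.

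In the death receptor pathway, 8 of 11 genes were tested, with 4 higher and 4 lower. Ripk3, a kinase of necroptosis, was at 4.52 ± 0.178 and 4.03 ± 0.270 FPKM (difference -0.13, adjusted p = 0.351, limma). Fadd, the adaptor between death receptors and caspase-8, was at 7.36 ± 0.328 and 6.76 ± 0.286 FPKM (adjusted p = 0.385, limma), and Cflar, which restrains caspase-8, was at 11.2 ± 0.571 and 11.9 ± 0.163 FPKM (adjusted p = 0.457, limma). The groups of these 3 genes, of 8 tested, did not overlap, which held for 18.1% of all genes tested. The TNF receptor gene Tnfrsf1a was the highest of the list at 81.6 ± 1.77 and 81.4 ± 1.09 FPKM.

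Of 12 transcription factors known to act on family genes, 11 were tested, with 5 higher and 6 lower. Myc was at 3.71 ± 0.415 and 3.04 ± 0.291 FPKM (difference -0.22, adjusted p = 0.301, limma). Nfkb1 was at 34.1 ± 0.246 and 36.2 ± 1.36 FPKM (adjusted p = 0.341, limma), and Hif1a was at 20.9 ± 0.263 and 19.6 ± 0.926 FPKM (adjusted p = 0.398, limma). Jun was the highest at 67.8 ± 1.64 and 65.8 ± 1.21 FPKM. Trp53, whose product p53 acts on Bbc3, Pmaip1 and Bax, was at 26.0 ± 0.932 and 25.9 ± 0.545 FPKM, and was named after its values were seen. Of the proteins that modify or degrade members, 10 of 10 genes were tested, with 5 higher and 5 lower and 0 past the unadjusted threshold. Akt1 was the highest at 100.3 ± 2.51 and 102.6 ± 3.78 FPKM. Pim3, a kinase that phosphorylates BAD, was at 6.55 ± 0.251 and 6.91 ± 0.0704 FPKM, and Pim1 was at 26.4 ± 0.506 and 27.4 ± 0.890 FPKM.

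**Figure D5:**
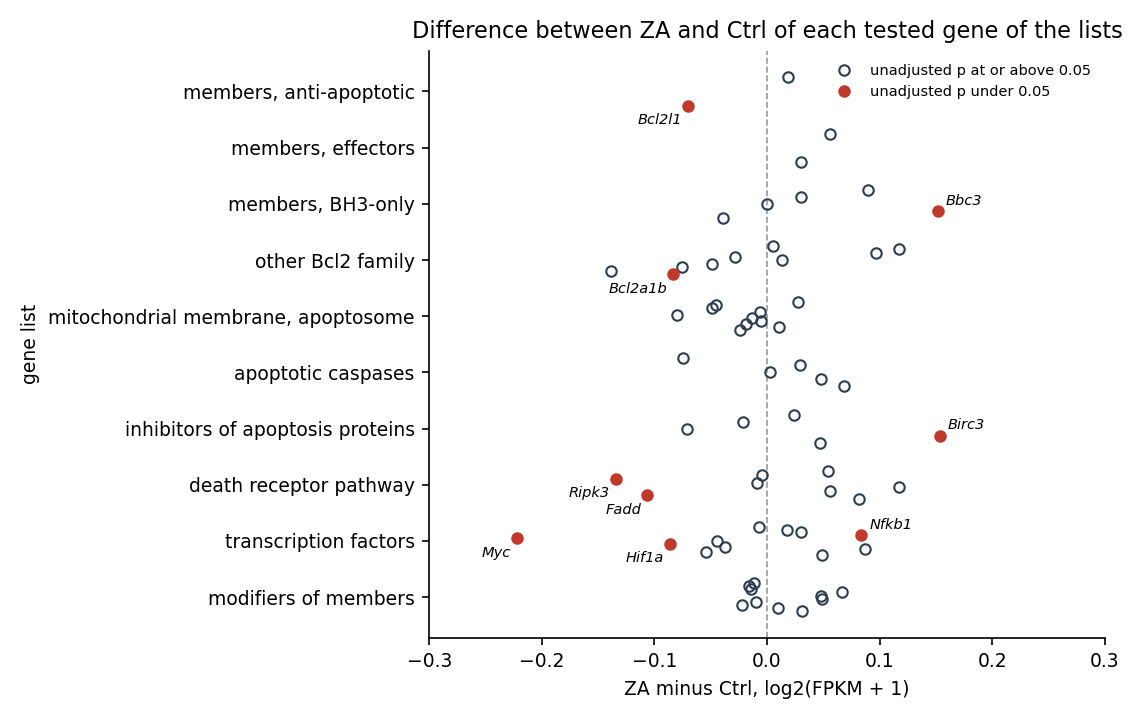
Difference between ZA and Ctrl on the log2(FPKM + 1) scale of each tested gene, by list, with the 9 family genes above the 58 other genes of the pathway. Filled points have an unadjusted p-value under 0.05 from limma, 9 genes in all, and 0 points have an adjusted p-value under 0.05.

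Library depth was even, between 41230600 and 42155808 fragments. In the whole table, limma gave 36 genes an adjusted p-value under 0.05, with 20 higher and 16 lower in ZA. That count fell to 1 without Ctrl replicate 1, 1 without Ctrl replicate 2, 6 without Ctrl replicate 3, 0 without ZA replicate 2 and 4 without ZA replicate 3. At the unadjusted threshold 735 genes were higher and 475 lower, and after centring each library on its median the split was 508 and 664. Macrophage markers were abundant, with a summed FPKM of 23499 to 27414 in Ctrl and 24393 to 27867 in ZA, led by Lyz2, Cd68 and Csf1r. Of the 8 macrophage markers, 2 had an unadjusted p-value under 0.05, Adgre1 and Csf1r, both higher in ZA (adjusted p = 0.0785 and 0.0701, limma). Over all genes tested, 7.5% were higher at that threshold.

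Markers of neutrophils and myeloid progenitors summed to 32.6 to 47.6 FPKM in Ctrl and 29.4 to 34.5 FPKM in ZA, with S100a9, S100a8 and Ngp highest and Ly6g at 0. Of the 5 genes tested, 3 were lower in ZA at the unadjusted threshold (Mpo, Elane and Ngp), with adjusted p-values from 0.110 (limma). Over all genes tested, 4.85% were lower at that threshold. Stromal markers, led by Col1a2, Col1a1 and Col3a1, summed to 10.9 to 20.97 FPKM in Ctrl and 9.46 to 15.3 FPKM in ZA, and osteoclast markers, led by Ctsk, Acp5 and Dcstamp, to 40.3 to 46.9 and 38.6 to 42.4 FPKM. In each of these 2 lists 1 gene was lower at the unadjusted threshold, Cxcl12 of 4 stromal genes tested and Acp5 of 2 osteoclast genes tested. Markers of B cells summed to at most 3.04 FPKM in any library, led by Cd79b, Cd79a and Ms4a1 and without Ighm, which has no row of its own. Markers of T cells (Lck, Cd3g and Cd3e highest) summed to at most 0.586 FPKM, of dendritic cells (Ccr7, Clec9a and Flt3) to 0.538 FPKM, of erythroid cells (Hba-a1, Klf1 and Hba-a2) to 2.72 FPKM and of mast cells and basophils (Mcpt8, Cpa3 and Fcer1a) to 1.15 FPKM. The part of other cells in the values of Bbc3 and Bcl2l1 was not tested. In bulk RNA, fewer cells of a type and less RNA per cell cannot be told apart.

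Exons of several members overlap those of neighbours in GENCODE M21, and the strand used in counting is not given in the sources used here. The shared bases were 25.5% of the exon bases of Bak1 (antisense to Ggnbp1, at a mean of 0.429 FPKM), 20.5% of Bad (antisense to Gpr137, at 7.83 FPKM), 17.7% of Bid (antisense to Bcl2l13, at 6.37 FPKM), 12.2% of Bax (same strand as Gm45808) and 6.09% of Bcl2 (antisense to D630008O14Rik). Reads from these stretches may have gone to either gene. The other 5 members, Bbc3 and Bcl2l1 among them, shared 0 exon bases with another gene in that annotation. The length behind the FPKM values exceeds all exons there for Bbc3 (3008 against 2124 bases), Mcl1 (8725 against 3418) and Bcl2l11 (11982 against 8029). Whether those further bases overlap other genes is not known.

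By a rule fixed for the member with the largest moderated statistic, the genes most like Bbc3 over the 6 libraries were Ust, a sulfotransferase gene, Nsd3, a histone methyltransferase gene, and Slc26a2, a sulfate transporter gene. Their Pearson r of log2(FPKM + 1) with Bbc3 was 0.997, 0.996 and 0.987, as a description over 6 libraries that share groups. Among 9799 genes, 161 had an r above 0.9, so that such likeness is not rare in these libraries.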

How the data were processed

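RNA from 3 Ctrl and 3 ZA libraries was sequenced on an Illumina NovaSeq instrument as paired-end reads. The paper names a VAHTS library kit and the labels name that kit and a SMARTER kit. The submitters' processing notes name the build mm9, and the aligner, the counting program and the annotation are not given in the sources used here. The authors deposited FPKM values, with other scaling between libraries not stated, in a table whose columns run together in all but 11 of 35434 rows. The separators were put back from the digits that such numbers can have. Where this left several readings, the reading was kept in which every FPKM came from whole fragments at 1 gene length (20 to 250000 bases were tried) and the library total, if it was ahead of the next reading by 3 powers of 10. This restored 35284 rows, 23809 with a single reading and 11475 by whole fragments, and 150 were left out. The 11 intact rows were restored identically, and of 3000 simulated rows 2985 were restored exactly, 14 were left out and 1 was wrong. Of each library's fragments, 99.71% are in restored rows. Of the 10 family genes, Bbc3 had a single reading and the other 9 were restored by whole fragments. All value columns were used.

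Groups and replicate numbers came from the sample labels. Differences were tested with limma 3.58.1 in R 4.3.3 (lmFit, eBayes with a trend, two-sided) on log2(FPKM + 1), as the values are not counts. The 9800 genes whose FPKM averaged 1 or more entered the fit, and p-values were adjusted over them by Benjamini-Hochberg, with a threshold of 0.05. Bcl2, under that mean, was compared with an exact permutation test (SciPy 1.17.1). A gene of median length with 3 fragments has 0.0210 FPKM. Floors cover counting error only. Tested on simulated data for ZA against Ctrl, 200 of 200 genes changed 2-fold among 9800 were called, with 12 unchanged genes called. With 0 changed genes, 0 were called. The dispersion was set to 0.000536 for all genes, the median of these data, so spread that differs between genes or libraries was not simulated. Whether a smaller change, such as the 13.2% of Bbc3, would be called was not tested. Libraries of a group were checked for duplicates, and their chi-square per gene was 3.52 to 9.73.

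The family genes and all lists were chosen with earlier results of these data known. All 10 family genes are named, and from each other list the 3 genes with the largest moderated statistic, the highest gene and any past an adjusted p of 0.05. A gene that this rule names is not reported here. Other genes past the unadjusted threshold, and those listed at 0, were named after their values were seen. Bcl2a1d, a further copy of A1, was also named outside this rule. Alternatives were the pseudocount, the filter, the scaling, the variance prior, a replicate block, each library left out in turn and limma's voom on the recovered fragments. Python 3.11.15 was used with pandas 2.3.3, NumPy 2.4.6 and, for figures, Matplotlib 3.10.9.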

Additional observations from a re-analysis of the deposited data

How the results depend on the processing

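In each of the 14 alternatives 0 family genes passed an adjusted p-value of 0.05, with limma or with voom. Over all genes the count of 36 moved to 1 without a filter on low values, 20 after quantile normalization, 1 with a variance prior without a trend and 132 with voom on the recovered fragments, and it ranged from 0 to 25 when each library was left out in turn (0 without ZA replicate 2). The cause was not tested. A fit with the replicate block called 78 genes and 0 family genes. In it Bbc3, Bcl2l1 and Bax had unadjusted p-values under 0.05 (0.0144, 0.0388 and 0.0353, limma). Without the block these were 0.00753, 0.0244 and 0.0677 (limma). Same-numbered libraries had deviations from their group means with correlations of 0.284, 0.0393 and 0.280 for numbers 1, 2 and 3. By these deviations, 6 of 6 libraries correlated best with the library of their own number. Whether the numbers mark a pairing is not given in the sources used here, and the main fit used no block. The difference of Bbc3 ranged from 0.13 to 0.18 on the log2 scale and kept an unadjusted p-value under 0.05 in 14 of 14 alternatives, with adjusted p-values of 0.185 to 0.448 (limma). That of Bcl2l1 ranged from -0.08 to -0.06 and kept an unadjusted p-value under 0.05 in 10 of 14 alternatives, with adjusted p-values of 0.274 to 0.558 (limma). The difference of Bax ranged from 0.04 to 0.08 and had an unadjusted p-value under 0.05 in 2 of 14 alternatives (limma). These were the replicate block and the fit without Ctrl replicate 2. Adjusted p-values of Bax were 0.286 to 0.679 (limma). The difference of Bad ranged from -0.0750 to 0.0094 as libraries were left out, the latter without Ctrl replicate 1. That of Bcl2l11, near 0, was between -0.0075 and 0.0054, and it turned to 0.0018 without Ctrl replicate 1, 0.00099 without Ctrl replicate 3, 0.0054 without ZA replicate 1 and 0.0019 without ZA replicate 3. The other family genes kept their direction in the alternatives run, but single libraries set the size of small differences. With libraries left out in turn, that of Mcl1 was between 0.00016 (without ZA replicate 3) and 0.0355 (without Ctrl replicate 3), that of Bak1 between 0.00020 (without ZA replicate 2) and 0.0449 (without ZA replicate 1), and that of Bid between 0.0102 (without ZA replicate 2) and 0.0574 (without ZA replicate 1). The range was 0.0094 (without ZA replicate 3) to 0.150 (without Ctrl replicate 3) for Pmaip1, and -0.0822 (without Ctrl replicate 2) to -0.0082 (without Ctrl replicate 1) for Bcl2. Depth limits Bcl2, with 216 to 273 fragments per library, more than the other members.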
